A study of Mus musculus with 6 samples.

Results

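The transcripts of 10 transcription factors that set or mark the basophil lineage, Gata1, Gata2, Cebpa, Cebpb, Runx1, Mitf, Spi1, Irf8, Bcl6 and Ikzf2, were followed in bone marrow-derived basophils (BMBAs) with and without IL-3. The factors were taken by gene symbol from a table of 37043 symbols, and all 10 were found there. BMBAs were grown from bone marrow of wild-type C57BL/6J mice for 7 days in 0.3 ng/mL IL-3 (the labels leave this cytokine unnamed, and the methods name it), and were enriched with beads against CD49b. They were then given PBS (3 libraries) or 10 ng/mL IL-3 (3 libraries) for 6 h, each library being described as a separate culture. Both groups had therefore already been exposed to IL-3 in culture, and the cells are a bead-enriched population and not a sorted one. No source used here says whether the cultures came from different mice, so p-values measure the spread between these cultures.

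Basophils arise in the bone marrow from progenitors that they share with mast cells. GATA2 is required for both lineages, C/EBPα is known to favour basophils, and MITF is known to favour mast cells and to oppose C/EBPα. PU.1 (encoded by Spi1) and IRF8 act in myeloid progenitors, where IRF8 favours monocytes and dendritic cells and has also been placed upstream of GATA2 in basophil progenitors. IL-3 signals through JAK2 and the factor STAT5, which binds DNA as a pair of subunits. The experiment addressed how IL-3 alters basophil-lineage cells of the bone marrow, and the factors above are followed here in that comparison.

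Library totals ranged from 10537540 to 13999287 counts, and a gene with 0 counts could have had up to 3 counts, equal to 0.233 to 0.296 CPM. CPM are counts divided by library size, here after a TMM factor per library, which holds most genes level between groups. Of the table, 16675 genes had enough counts to be tested, and all 10 factors were among them. Basophil marker genes summed to 11481 to 12811 CPM in PBS and 18126 to 18371 CPM in IL-3 libraries, led by the protease genes Prss34 and Mcpt8, and none of the 10 markers on that list was at 0. Of these markers 8 were called higher and 1 lower, with a median log2 fold change of 0.68. Gata2 is itself 1 of them, and 4 others (Cpa3, Fcer1a, Hdc and Ms4a2) recur among the GATA2 and MITF targets below, so these counts are not separate from each other. When libraries were scaled by their totals only, the median gene shifted by -0.16 on the log2 scale, which changed the share of calls that were higher in IL-3 from 47.1% to 25.2%.

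Most of the lineage factors differed between the groups, in both directions. Gata1, Gata2, Runx1, Mitf and Cebpb were higher and Irf8, Bcl6 and Cebpa were lower in IL-3-stimulated than in PBS-treated BMBAs (edgeR quasi-likelihood test, with 0.05 as the limit for the adjusted p). Spi1 and Ikzf2 were not called. The 8 called factors were 80.0% of the 10, whereas 38.2% of all tested genes were called. The 5 factors called higher and the 3 called lower stand beside 18.0% and 20.2% of all tested genes called in these directions. In those 8 factors all 3 IL-3 libraries also lay beyond all 3 PBS libraries, which held for 48.2% of all tested genes (23.8% with IL-3 above and 24.4% with IL-3 below). A call with a change of more than 2-fold was made for 3 factors and for 9.58% of all tested genes. Regardless of sign, log2 fold changes had a median of 0.82 over the factors and 0.29 over all tested genes. Since these are bulk libraries, fewer cells of a type and less RNA per cell cannot be told apart in any of these values.

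**Figure D1:**
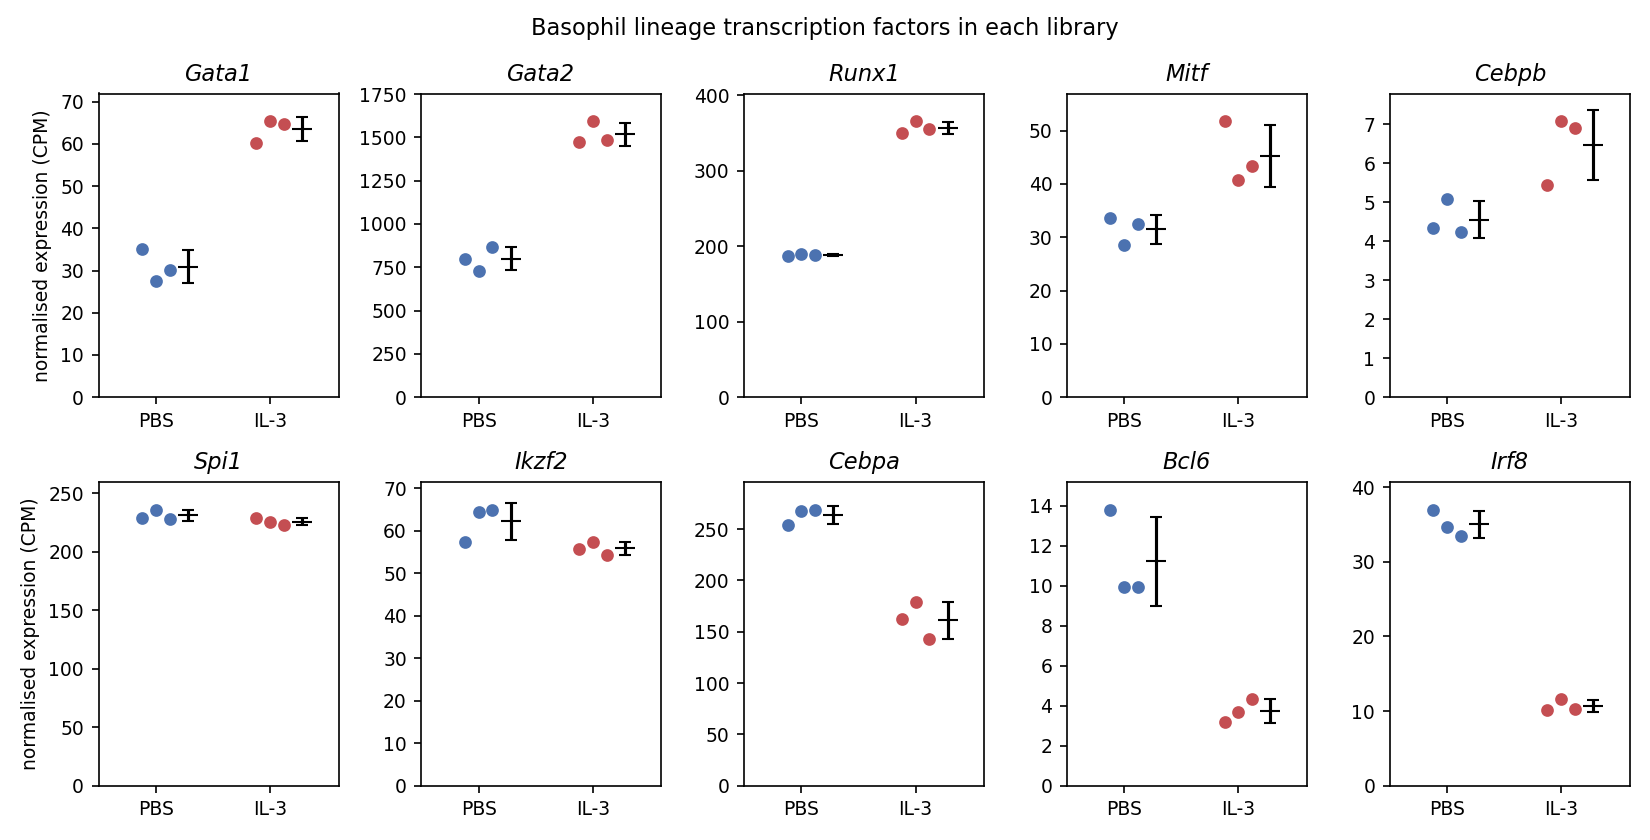
Normalised expression in CPM (y axis, from 0) of each factor in the 3 PBS and 3 IL-3 libraries, 1 point per library, with mean and SD in black, in order of fold change. The groups do not overlap in 8 of the 10 panels and overlap for Spi1 and Ikzf2.

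Gata2, the most abundant of the factors in CPM per kb, nearly doubled with IL-3. It measured 800.0, 731 and 865 CPM after PBS, compared with 1476, 1594 and 1483 CPM after IL-3. The lowest IL-3 library was thus far above the highest PBS library. The log2 fold change was 0.93 (SE 0.0576, edgeR adjusted p 2.73e-09), a fold of 1.90, between means of 799 ± 67.4 and 1518 ± 66.2 CPM (SD, n = 3 each). Gata2 (ENSMUSG00000015053.14) lies on chromosome 6 from 88193891 to 88207032 on the plus strand of GRCm38.

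Gata1 encodes a GATA factor of red cells, megakaryocytes, mast cells, eosinophils and basophils, and it rose by a similar fold. Gata1 measured 35.1, 27.5 and 30.2 CPM in PBS and 60.3, 65.4 and 64.8 CPM in IL-3 libraries. PBS replicate 1 was the highest of its group and still below every IL-3 library. With a log2 fold change of 1.04 (SE 0.0897, edgeR adjusted p 1.56e-07), Gata1 had the largest rise of the 10 factors. It lies on chromosome X from 7959260 to 7978071 on the minus strand.

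Runx1 and Mitf also rose. Runx1, a core factor of blood stem and progenitor cells that pairs with CBFβ, varied little between cultures. It measured 187, 190 and 188 CPM after PBS and 349.7, 366 and 355 CPM after IL-3. The 3 libraries of each group were almost level, and the log2 fold change was 0.92 (SE 0.050, edgeR adjusted p 5.05e-10). Mitf had 33.7, 28.5 and 32.4 CPM in PBS and 51.8, 40.7 and 43.4 CPM in IL-3 libraries. IL-3 replicate 1 was the highest library, and the rise was smaller, with a log2 fold change of 0.52 (SE 0.101, edgeR adjusted p 0.000724). Mitf has several annotated start sites, and counts per symbol do not separate its isoforms. The rise of Mitf was not called in a test against a fold of 1.5 (edgeR glmTreat adjusted p 1.0).

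The 2 C/EBP factors went in opposite directions. Cebpa, whose product drives granulocyte fate, had 254, 268 and 269 CPM in PBS and 162, 179 and 143 CPM in IL-3 libraries. Every IL-3 library was below every PBS library, and the log2 fold change was -0.71 (SE 0.0711, edgeR adjusted p 9.07e-07). In the test against a fold of 1.5, Cebpa was not called (edgeR glmTreat adjusted p 0.13). Cebpb, whose product acts in inflammatory and emergency responses, was scarce, at 4.34, 5.09 and 4.23 CPM in PBS and 5.43, 7.08 and 6.90 CPM in IL-3 libraries. The gap between IL-3 replicate 1 and PBS replicate 2 was small, and the log2 fold change of 0.51 (SE 0.188) had an edgeR adjusted p of 0.0411. Cebpb lost its call in 11 of 17 alternatives, among them DESeq2 (adjusted p 0.106) and each of 4 fits that left out a library, namely PBS replicate 1 (0.101), PBS replicate 3 (0.106), IL-3 replicate 2 (0.145) and IL-3 replicate 3 (0.125). Over all alternatives its adjusted p ran from 0.0292 to 1.0. Moreover, 18.1% of the 50-mers of its transcript are antisense to transcripts of Tmem189, which had 835 to 1283 counts per library against 48 to 89 for Cebpb, so without a stated strand the reads of both genes cannot be told apart there.

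Irf8 and Bcl6 fell most. Irf8 had 37.0, 34.7 and 33.4 CPM in PBS and 10.2, 11.6 and 10.3 CPM in IL-3 libraries. The groups were widely separated, and the log2 fold change of -1.71 (SE 0.108, edgeR adjusted p 3.14e-09) was the 136th lowest of all 16675 genes tested. Bcl6, encoding a zinc finger repressor known from germinal centre B cells, had 13.8, 9.91 and 9.95 CPM in PBS and 3.16, 3.66 and 4.34 CPM in IL-3 libraries. PBS replicate 1 was the highest, and no IL-3 library exceeded 4.34 CPM. The log2 fold change of Bcl6 was -1.58 (SE 0.193, edgeR adjusted p 7.43e-06), and it lay between -1.71 and -1.40 with any 1 library left out. These were the only factors of the 10 that fell more than 2-fold.

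The sequences before 1 of 2 annotated starts of Irf8 and before both starts of Bcl6 are shown because they were the only ones, among the factors with a RefSeq upstream window, that held the letters TTCNNNGAA. This is the core to which STAT5 binds, and it reads the same on both strands and is also the core of the site of BCL6 itself. Windows of 250 bases upstream of annotated starts were searched for 8 of the 10 factors, 14 windows in all, and 3 windows held the core. Of all 32851 windows of that length in the RefSeq table, 7.02% held it. Capitals mark the core, and the first transcribed base follows the last letter printed. A match describes letters and not a bound site.
Irf8, start 1 (chr8:120736108-120736357, plus strand, GRCm38.p6): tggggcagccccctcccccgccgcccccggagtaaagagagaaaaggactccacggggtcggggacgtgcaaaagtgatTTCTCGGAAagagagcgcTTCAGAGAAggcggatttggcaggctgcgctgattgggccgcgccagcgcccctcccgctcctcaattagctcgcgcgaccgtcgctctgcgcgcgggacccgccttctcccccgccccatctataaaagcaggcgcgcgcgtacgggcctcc
Bcl6, start 1 (chr16:23988853-23989102, minus strand, GRCm38.p6): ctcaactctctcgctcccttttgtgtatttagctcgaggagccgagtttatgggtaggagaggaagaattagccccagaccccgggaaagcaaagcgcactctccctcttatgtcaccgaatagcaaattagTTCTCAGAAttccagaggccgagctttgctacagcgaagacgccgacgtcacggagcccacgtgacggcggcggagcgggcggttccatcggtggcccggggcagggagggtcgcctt
Bcl6, start 2 (chr16:23981284-23981533, minus strand, GRCm38.p6): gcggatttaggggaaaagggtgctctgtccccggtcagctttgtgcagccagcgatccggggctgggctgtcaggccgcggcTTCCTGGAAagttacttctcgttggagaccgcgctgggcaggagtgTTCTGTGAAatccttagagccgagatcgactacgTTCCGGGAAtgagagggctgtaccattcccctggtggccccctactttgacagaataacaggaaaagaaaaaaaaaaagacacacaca

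With -1 as the base just before the start, the window of Irf8 start 1 held the core at -171 to -163 and at -153 to -145, and that of Irf8 start 2, which is not shown, did not hold it. The window of Bcl6 start 1 held it at -118 to -110, and that of start 2 held it at -168 to -160, -122 to -114 and -88 to -80. Which start was used cannot be read from counts per symbol.

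Spi1 and Ikzf2 differed little between the groups. Spi1, the second most abundant factor per length, had 229, 236 and 228 CPM in PBS and 229, 225 and 223 CPM in IL-3 libraries. The ranges overlapped, and the log2 fold change was -0.03 (SE 0.0506, edgeR adjusted p 0.635). Ikzf2, which encodes the Ikaros family factor Helios, had 57.3, 64.5 and 65.0 CPM in PBS and 55.8, 57.4 and 54.4 CPM in IL-3 libraries. PBS replicate 1 lay within the IL-3 range, and the log2 fold change of -0.16 (SE 0.0723) had an edgeR adjusted p of 0.103. Without that library Ikzf2 was at -0.22 and was called (adjusted p 0.0375). With library totals alone both genes were called lower, Spi1 at -0.20 and Ikzf2 at -0.32, in a scaling that shifts the median gene by -0.16.

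**Figure D2:**
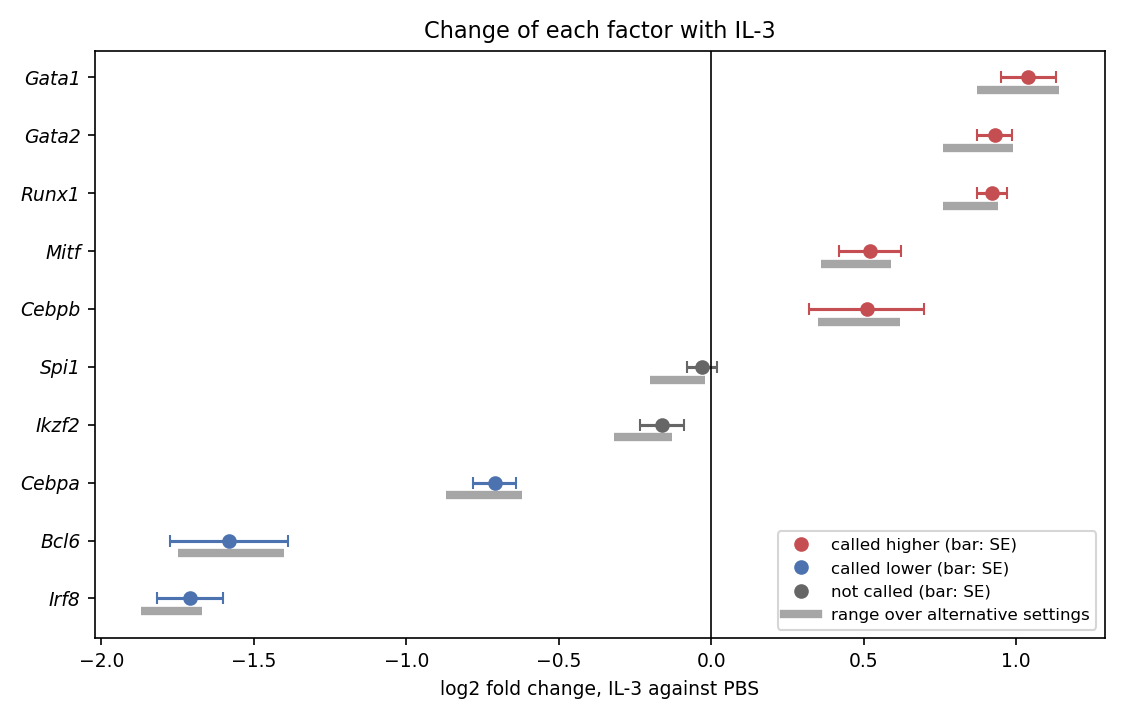
Log2 fold change of IL-3 against PBS (x axis) for each factor, with its SE as a thin bar and, in grey, the range over 17 alternative settings. Gata1, Gata2 and Runx1 lie near 1, Irf8 and Bcl6 below -1.5, and no range crosses 0.

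For comparison between genes, levels were taken as CPM per kb of the longest annotated coding transcript. In PBS-treated BMBAs the order was Gata2, Spi1, Cebpa, Runx1, Gata1, Irf8, Ikzf2, Mitf, Bcl6 and Cebpb, from 224 ± 18.9 down to 3.03 ± 0.310 CPM per kb (SD, n = 3). The ranges of neighbours in that order overlapped for Ikzf2 and Mitf and for Bcl6 and Cebpb. In IL-3-stimulated BMBAs Gata2 reached 425 ± 18.5 CPM per kb, and Spi1, still second, had 111 ± 1.54 CPM per kb. Runx1 came level with Cebpa, at 60.9 ± 1.38 and 61.5 ± 6.93 CPM per kb, with overlapping ranges. Irf8 went from the 6th to the 9th place, where its range overlapped that of Cebpb just above it, and Bcl6 took the last. Of the summed level of the 10 factors per kb, Gata2 made up 43.1% ± 2.20 in PBS and 59.3% ± 0.551 in IL-3 libraries, while Cebpa went from 19.4% ± 0.878 to 8.57% ± 0.697 and Irf8 from 2.38% ± 0.170 to 0.524% ± 0.019. These shares were not tested, and they depend on the transcript length chosen, as the median length of all annotated transcripts gave Cebpa 9.38% in PBS and 4.11% in IL-3, and Gata2 39.4% and 53.7%. With that length, Gata2 was 1.16 times the level of Spi1 in PBS in place of 1.97 times, Cebpa was below Runx1 and Gata1 in IL-3, and Irf8 went from the 7th to the 8th place.

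**Figure D3:**
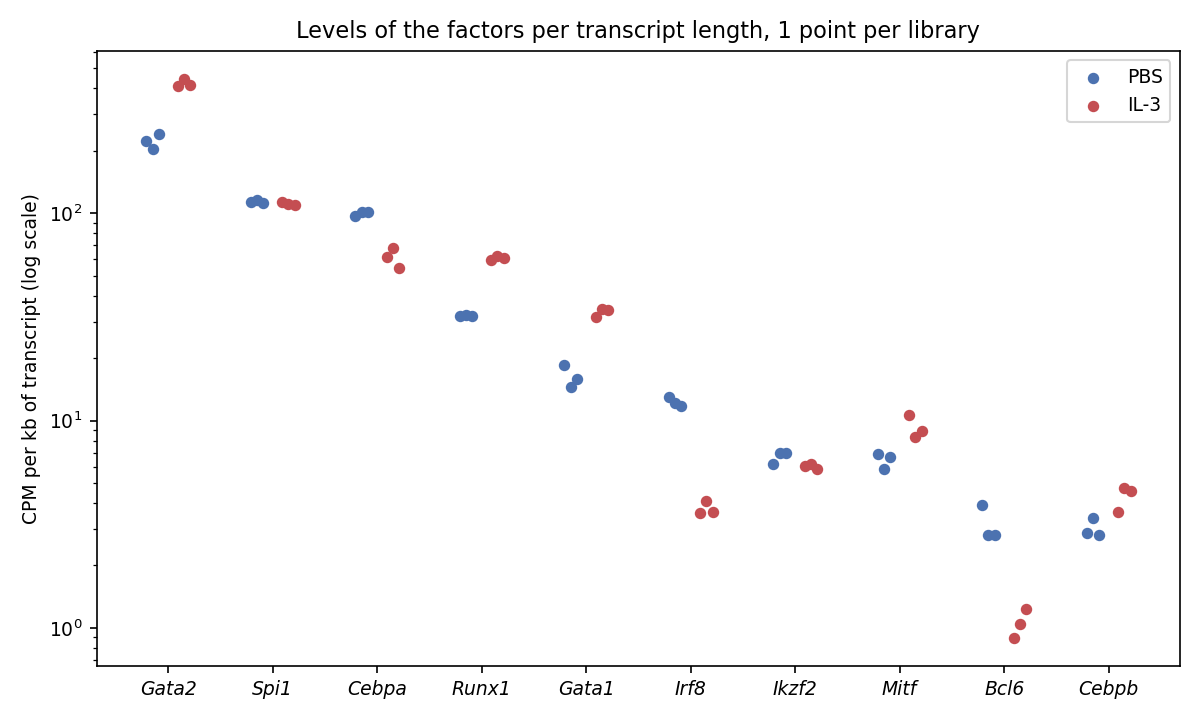
CPM per kb of the longest coding transcript (y axis, log scale) of each factor, 1 point per library, in the order of the PBS group. Gata2 stands above all other factors in all 6 libraries, and the IL-3 points of Irf8 and Bcl6 lie well below their PBS points.

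Pairs of factors that are known to oppose or accompany each other were compared as differences of log2 CPM within each library, in which scaling factors nearly cancel. Gata2 minus Cebpa was 1.66, 1.45 and 1.68 in PBS and 3.18, 3.15 and 3.37 in IL-3 libraries. All IL-3 libraries were above all PBS libraries, and the means differed by 1.64. Mitf minus Cebpa rose by 1.23, from -3.06 ± 0.161 to -1.83 ± 0.265 (SD, n = 3 each), also without overlap.

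The difference of Spi1 and Gata1 narrowed, from 2.90 ± 0.196 to 1.83 ± 0.0816, and that of Cebpa and Cebpb from 5.81 ± 0.131 to 4.61 ± 0.259. Irf8 minus Cebpa went from -2.91 ± 0.12 to -3.89 ± 0.107, so that Irf8 was lower relative to Cebpa although Cebpa itself fell. By contrast, Gata2 minus Gata1 was 4.69 ± 0.167 and 4.58 ± 0.0536 with overlapping libraries, a change of -0.11 (exact permutation test, two-sided p 0.4). For the other 5 differences the exact permutation p was 0.1, the smallest that 3 against 3 libraries allow, and 0.12 after adjustment over 6 comparisons, so none could pass 0.05.

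**Figure D4:**
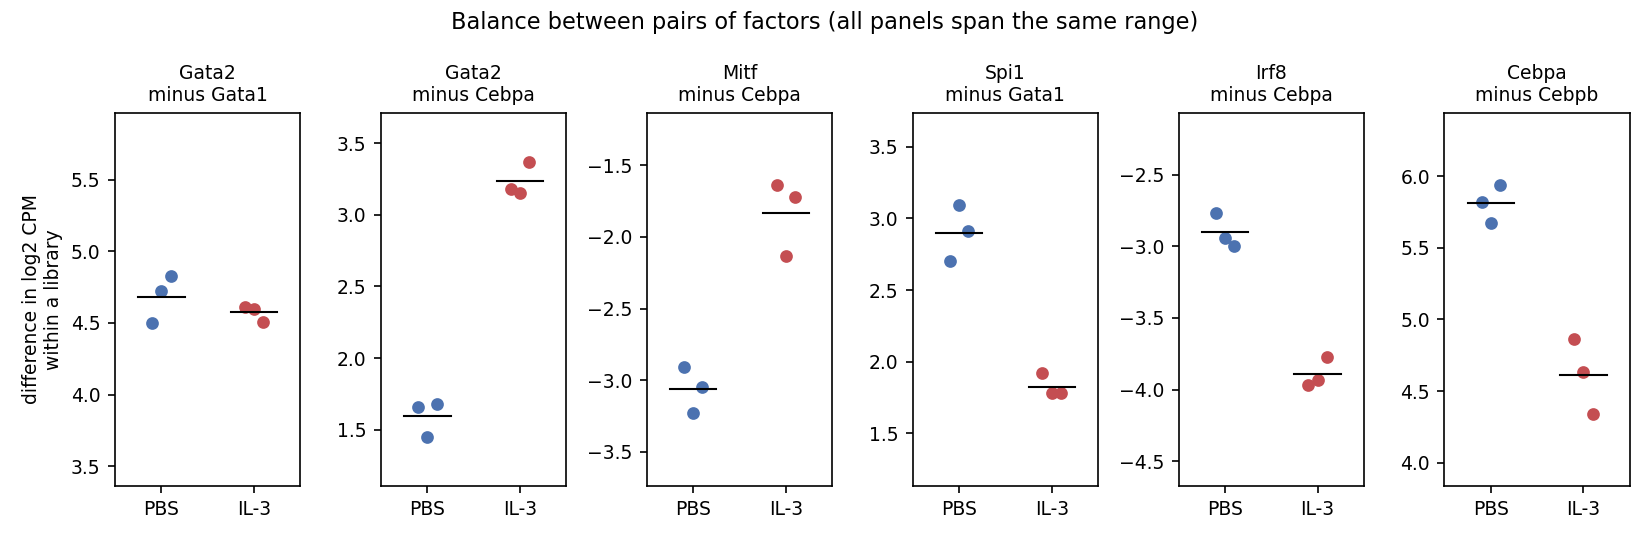
Difference in log2 CPM between factors of a pair within a library (y axis, each panel spanning the same range), 1 point per library, with the group mean as a line. The groups are apart in 5 panels and overlap for Gata2 minus Gata1.

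Relatives and partners of the factors were followed in 9 lists of 63 genes, of which 59 were tested. Of these, 20 were called higher and 17 lower, 62.7% of the tested genes against 38.2% of all genes. Partners that join GATA factors on DNA were split. Tal1, a helix-loop-helix factor of the same complex, rose from 56.0 ± 3.85 to 121 ± 16.9 CPM (edgeR adjusted p 6.13e-08). Gfi1b, which encodes a repressor that acts in red cell and megakaryocyte development, rose by 0.83. Cbfa2t3, a corepressor of that complex, fell from 83.8 ± 7.36 to 38.2 ± 2.48 CPM (log2 fold change -1.14). Lmo2, Ldb1 and Zfpm1, which encode the bridging proteins LMO2 and LDB1 and the GATA1 cofactor FOG1, were at -0.86, -0.44 and -0.67, and all were called lower. Lyl1, Nfe2 and Gata3 were not called.

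Several relatives moved more than the factors themselves. Irf4, a relative of Irf8 that acts in lymphocytes and type 2 responses, rose from 0.802 ± 0.229 to 13.7 ± 2.82 CPM (log2 fold change 4.08, edgeR adjusted p 2.74e-09), while Irf8 fell. Batf3, a partner of IRF factors, rose by 1.23 from 3.18 ± 1.49 CPM, and Irf1 was the only tested gene of the IRF list called lower (-0.45). Among Ikaros factors, Ikzf4 (Eos) rose from 4.82 ± 0.914 to 47.7 ± 4.31 CPM and Ikzf3 (Aiolos) fell from 15.1 ± 0.417 to 5.91 ± 1.07 CPM, with log2 fold changes of 3.30 and -1.36. Ikzf2 lay between both. Tfec, a relative of Mitf, rose from 9.47 ± 1.19 to 31.3 ± 4.29 CPM, and Tfeb fell by 0.42 on the log2 scale.

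Other families moved less or in both directions. Of the ETS factors related to PU.1, Ets1 rose by 1.15, with Etv6, Ets2 and Fli1 also called higher, and Erg fell by 1.61 from 8.48 ± 0.622 CPM. Cbfb, the partner of Runx1, rose by 0.26, and neither Runx2 nor Runx3 was called. On the C/EBP list Ddit3 was at -0.43 and called lower. The only call higher there was Cebpz (0.38), which shares the name but encodes no bZIP factor of that family, while Cebpd and Cebpg were not called and Cebpe was too scarce to be tested. Of the corepressors of BCL6, Ncor1 and Bcor fell by 0.34 and 0.29 on the log2 scale. Among other fate factors, Id1, an inhibitor of helix-loop-helix factors, rose from 81.0 ± 4.18 to 419.7 ± 6.88 CPM (log2 fold change 2.37), and its relative Id3 fell from 21.3 ± 3.42 to 4.92 ± 0.815 CPM (-2.10).

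Genes known as targets of the factors were then counted in 6 lists of 75 genes, 67 of them tested, with 26 called higher and 21 lower, together 70.1% of the tested targets against 38.2% of all tested genes (18.0% higher and 20.2% lower). These counts describe the lists, and no factor was shown to act on them here. Of 16 genes that GATA2 or MITF is known to drive in basophils and mast cells, 13 were called higher and 2 lower, with a median log2 fold change of 1.18 against -0.00329 over all tested genes. Srgn, encoding the granule proteoglycan serglycin, rose by 1.34, and Alox5, the first enzyme of leukotriene synthesis, rose by 1.82. The genes called lower were Fcer1a (-0.50) and Hpgds (-1.11), a prostaglandin D2 synthase. Genes of red cells and platelets known as GATA1 targets showed no call higher. All 12 genes of that list are also on the marker lists of red cell precursors (7) or megakaryocytes (5) given below, so the lists do not give separate counts. Of 9 tested genes, 4 were called lower, namely Epor (-1.34), Hba-a1 (-1.14), Pf4 (-0.97) and Gp1ba (-0.81), of which Hba-a1 is uncertain because it shares reads with its near-identical copy Hba-a2. Alas2 had 0 counts in all libraries.

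Of 12 genes known to depend on IRF8 in monocytes and dendritic cells, 7 were called lower and 1 higher, with a median of -0.59. Ctss, a lysosomal protease, fell by 1.02 and Cybb, a subunit of the phagocyte oxidase, fell by 1.14, while the gene called higher was Batf3. Batf3 was also counted among the relatives above. Cd74, called lower (-0.62), is also among the dendritic cell markers given below. Of 11 tested genes that BCL6 is known to repress, 7 were called higher and 1 lower, with a median of 2.28. Cish and Ccnd2 had log2 fold changes of 4.01 and 2.44, and the gene called lower was Cxcl10 (-3.24), which had 9.74, 7.36 and 0.969 CPM in PBS and at most 0.750 CPM in IL-3 libraries, so PBS replicate 3 lay close to the IL-3 group. Cish, Socs2, Ccnd2, Bcl2 and Cd69 on that list are also known to respond to STAT5, so the list does not single out BCL6. The lists of PU.1 targets (4 higher and 4 lower of 12) and of C/EBP targets (2 higher and 3 lower of 8 tested) had medians of -0.04 and -0.11, and the latter changed sign among the alternatives (-0.59 to 0.38). On the PU.1 list Btk rose by 0.89 and Cd68 fell by 1.03, and on the C/EBP list Lcn2 rose by 0.47 and Mpo fell by 0.63. The PU.1 list shares Cd68 and Csf1r with the monocyte and macrophage markers and Itgax with the dendritic cell markers.

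**Figure D5:**
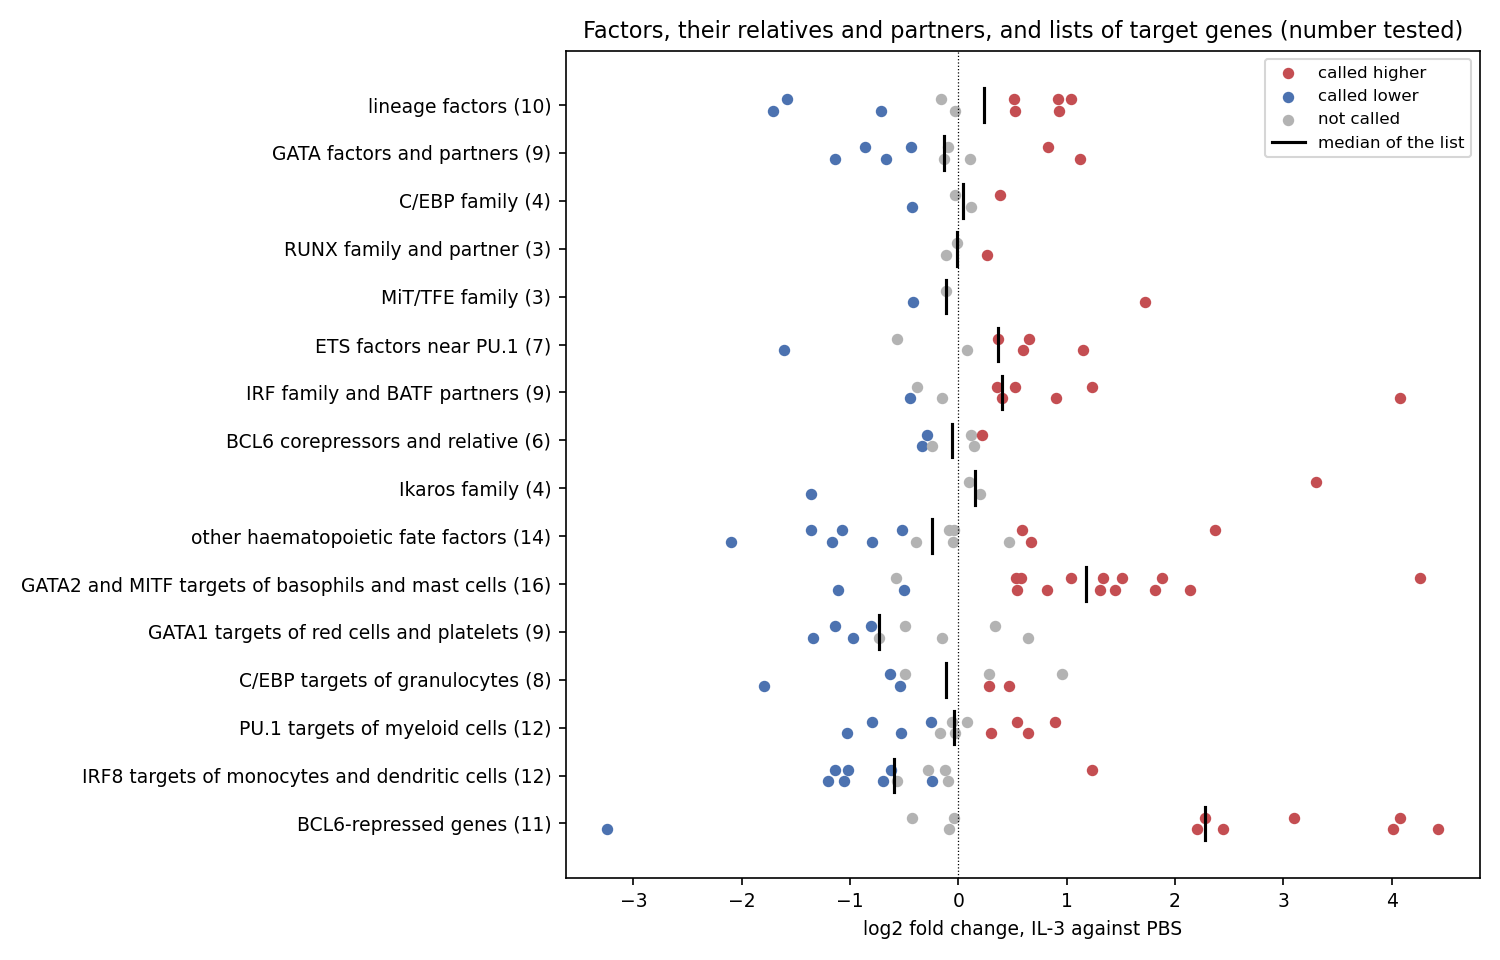
Log2 fold change of IL-3 against PBS (x axis) of every tested gene in the lists of lineage factors, relatives, partners and targets, 1 point per gene, coloured by call, with the list median as a black line. Points of the GATA2 and MITF target list lie mostly above 0 and those of the IRF8 target list mostly below 0.

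Marker genes of other cells moved with these results. Monocyte and macrophage markers summed to 11962 to 12901 CPM in PBS and 6252 to 6883 CPM in IL-3 libraries, with 9 of 12 called lower and 2 higher and none at 0. Dendritic cell markers summed to 1367 to 1498 CPM in PBS and 863 to 960.3 CPM in IL-3 libraries, with 3 of 9 called lower. Irf8, which both cell types express, fell by more than either sum. Its log2 ratio to the monocyte and macrophage sum went from -8.48 ± 0.0376 to -9.24 ± 0.161, and that to the dendritic cell sum from -5.33 ± 0.0236 to -6.43 ± 0.0923 (SD, n = 3 each, exact permutation p 0.1 for both, ratios chosen after the values were seen). Bcl6 fell by 0.63 relative to the monocyte and macrophage sum, and Cebpa, in contrast, was 0.24 higher relative to it (exact permutation p 0.1 for both). Most of the monocyte and macrophage sum is Lyz2, and most of the dendritic cell sum is Cd74 and H2-Ab1, which other cells also express. The ratios need not hold for the other markers on either list, such as Clec9a, which fell by 1.29 from 6.15 CPM. The part of such cells in the changes of Irf8, Bcl6, Cebpa and the IRF8 targets was not tested.

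Mast cell markers, of which Mrgprb1 and Mrgprb2 were too scarce to be tested, summed to 516 to 598 CPM in PBS and 807 to 925 CPM in IL-3 libraries, with 3 of 8 tested genes called higher and 2 lower. Of this list, 4 genes (Cma1, Kit, Mcpt4 and Tpsb2) are also on the GATA2 and MITF target list above. They include all 3 called higher (Kit, Cma1 and Tpsb2), so these counts are not separate from that list. Red cell precursor markers summed to 112 to 230.0 and 59.6 to 104 CPM, megakaryocyte markers to 1069 to 1707 and 583 to 1099 CPM, and 3 genes of each list were called lower and 0 higher (edgeR). Neutrophil markers, with sums of 139 to 165 and 308 to 358 CPM, and eosinophil markers, with sums of 157 to 175 and 99.6 to 140.1 CPM, both held genes called in each direction. All 12 markers of dividing cells were called lower and summed to 1213 to 1331 CPM in PBS and 559 to 668 CPM in IL-3 libraries. Their part in the changes of Gata1, Gata2, Mitf and Cebpb was likewise not tested.

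The genes most like Gata1 and Irf8 across libraries were sought among 6692 other genes with a mean of at least 20 CPM, by Pearson's r of log2 CPM over the 6 libraries. Since these fall into 2 groups, r mostly reflects the difference between groups, and 13.3% of the genes had an r above 0.95 with Gata1 and 10.4% with Irf8. Closest to Gata1 were 2900097C17Rik, Taf10 and Med7, with r of 0.9993, 0.9987 and 0.9987 and log2 fold changes of 0.51, 0.42 and 0.73. Closest to Irf8 were Cxcr4, mt-Co3 and Ddrgk1, each with an r of 0.9989 and with log2 fold changes of -2.54, -0.39 and -0.46. No choice among such close values of r is firm with 6 libraries.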

How the data were processed

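Poly(A) RNA of 6 BMBA libraries, 3 stimulated with PBS and 3 with IL-3, was measured by bulk RNA-seq. The deposited table holds raw read counts per gene symbol. According to the methods and the labels, the authors amplified whole-transcriptome cDNA, trimmed reads with cutadapt 3.4, mapped them with Bowtie2 to reference RNA and counted reads per gene. The methods name the mouse build GRCm38, whereas the submitters' processing notes name GRCm39. No source used here says whether counting used the strand, and no molecular identifiers are described, so reads copied by PCR were counted separately and limits set by counts cover counting error only.

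Counts were tested with edgeR 4.0.16 in R 4.3.3: filterByExpr removed low counts, TMM (trimmed mean of M values) factors scaled the libraries, and the quasi-likelihood F test of IL-3 against PBS had group as its only term. P-values are two-sided and adjusted by Benjamini-Hochberg over all genes tested. Within-library differences were taken on log2 CPM (prior count 2) and tested by exact permutation (scipy 1.17.1). Gene positions and transcript lengths came from GENCODE M21 (GRCm38), and upstream windows from RefSeq (GRCm38.p6). The fit was tested on simulated data before use.

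The factors and all lists were chosen with earlier results of these data known. Named in addition to the 10 factors were, by rule, up to 2 called genes of largest change per family list with a mean of at least 1 CPM, the 2 called genes of smallest adjusted p per target list, the 2 most abundant genes per marker list, and 3 genes most like the factor of largest rise and the factor of largest fall. Not all genes that the rule names are printed. List genes outside the rule were named after their values were seen. Alternatives were DESeq2 1.42.0 size factors, library totals, iterated TMM, no filter, a filter at 1 CPM in 3 libraries, the DESeq2 Wald test, limma-voom (limma 3.58.1), the edgeR exact test, a replicate block, each library left out, a limit of 0.01 for the adjusted p and edgeR's glmTreat with a fold of 1.5.

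The replicate numbers gave no sign of pairing libraries across the groups. In each group, replicates differed by more than sampling noise, with a chi-square per degree of freedom of at least 2.75.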

Additional observations from a re-analysis of the deposited data

How the results depend on the processing

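Each factor kept its direction under all 17 alternatives run for it. Gata1, Gata2, Runx1, Irf8 and Bcl6 also kept their call in all of them, with log2 fold changes of 0.87 to 1.14, 0.76 to 0.99, 0.76 to 0.94, -1.87 to -1.67 and -1.75 to -1.40. With library totals alone, 5 factors were called lower, since Spi1 and Ikzf2 were added, and 1698 genes were called higher and 5030 lower, which follows from the shift of all values by that scaling. In the test against a fold of 1.5, by its own construction, 3 factors were called higher, and 709 genes were higher and 883 lower over the whole table, against 3003 and 3372 with no such fold. Counts of called factors, relatives and targets moved by no more than 1.5 times in the other alternatives run for them, and the differences between factors moved by less than 1 SD with a prior count of 0.5 and with any 1 library left out.

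With the replicate block, Cebpb was at 0.51 with an edgeR adjusted p of 0.0531, and the block changed the call of no other factor. With it, 2842 genes were called higher and 3247 lower in all. Libraries sharing a replicate number did not deviate together (correlations of -0.00869, -0.0162 and -0.0224), and 0 of 6 libraries correlated best with its own number, so the block was not used elsewhere. The median of neutrophil markers ranged from 0.10 to 2.36 and that of C/EBP targets from -0.59 to 0.38. The medians of GATA2 and MITF targets (1.02 to 1.23), IRF8 targets (-0.76 to -0.50) and BCL6-repressed genes (2.12 to 2.28) kept their sign, whereas those of the C/EBP, RUNX and Ikaros families and of mast cell and eosinophil markers crossed 0. In the order of levels per kb, Gata2 and Spi1 alone kept their place in both groups when the median transcript length was used. The lowest counts per library among the factors were those of Cebpb (48 to 89) and Bcl6 (32 to 169). For all other changes, the cause was not tested.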

Other observations

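Antisense transcripts at Cebpa (Gm45091), Runx1 (Gm26626) and Ikzf2 (Gm29114) had at most 4, 11 and 6 counts in any library, and no 50-mer of any of the 10 factors occurred in the same orientation in transcripts of another gene (0%). Tmem189, antisense to Cebpb, was the exception among antisense neighbours, and Gm20388, which overlaps the Irf8 locus on the same strand, was not analysed here.

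In the 14 upstream windows, which leave out Spi1 and Ikzf2, the letters GATAA on either strand were found in 2, both of Mitf. This was a smaller share than the 22.6% of all RefSeq windows of that length that held them. The window of Mitf start 3 is shown because its match, in capitals at -12 to -8, is the nearer of the 2 to a start site. Whether a GATA factor acts there was not tested.
Mitf, start 3 (chr6:97991533-97991782, plus strand, GRCm38.p6): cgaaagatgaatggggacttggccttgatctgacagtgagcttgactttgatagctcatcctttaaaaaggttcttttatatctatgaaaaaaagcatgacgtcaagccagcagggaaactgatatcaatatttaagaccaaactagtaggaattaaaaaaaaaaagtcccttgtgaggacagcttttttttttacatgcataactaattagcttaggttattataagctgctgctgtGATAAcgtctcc

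The GAGGAA core of PU.1 was found in 1 window each of Gata1, Runx1 and Bcl6 (23.3% of all windows held it), the E-box CACGTG in 1 window each of Runx1 and Bcl6 (6.02%), and the letters TTGCNNAA of C/EBP factors and TGTGGT of RUNX factors in 1 Mitf window each (9.56% and 14.0% of all windows). No window held the paired IRF motif, which occurred in 2.98% of all windows. The searches covered both strands, and no matches of different motifs overlapped in these 14 windows. Matches and their absence describe these windows only.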
